A study of Mus musculus with 2 samples.

Results

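Contractile genes of the foetal mouse gonad are described here for 10 members, *Acta2*, *Actg2*, *Tagln*, *Cnn1*, *Myh11*, *Myl9*, *Tpm2*, *Des*, *Tnnt2* and *Myh8*, of the 42422 genes in the count table. The list was selected on measured values, since *Acta2*, *Tnnt2* and *Myh8* had risen with a MEK inhibitor at 72 h in these libraries, so that comparison is given below as a description without a test. Gonadal somatic cells were measured by 3′ RNA-seq in 40 libraries, 4 in each of 10 groups. All gonads were wild type and came at E12.5 from Swiss females mated with 129T2svJ males that carried the Oct4-eGFP transgene, which marks germ cells. Each library was a pool of gonads, and the sequenced cells were those without GFP fluorescence after sorting. An XX and an XY group were sorted directly at E12.5, without culture. XX and XY gonads were cultured together with the mesonephros in the vehicle DMSO for 24 h or 72 h, and the mesonephros was then removed. Further XY gonads were cultured for 24 h or 72 h with 500 nM of BGJ398, an inhibitor of the FGF receptors (FGFRi), or with 500 nM of PD0325901, an inhibitor of the kinase MEK below those receptors (MEKi). No XX gonads with an inhibitor were analysed here. The uncultured groups, both 24 h DMSO groups and the 24 h MEKi group were sequenced in one library pool, and the 24 h FGFRi group and all 72 h groups in the other.

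Contractile cells shorten by pulling actin filaments past myosin filaments, and the genes fall by role into filaments, motors and their regulators. *Acta2* and *Actg2* encode the smooth muscle actins. *Myh11* encodes smooth muscle myosin heavy chain and *Myl9* a regulatory light chain that switches the motor on when phosphorylated. *Tpm2* encodes a tropomyosin that lies along actin, *Cnn1* calponin, *Tagln* transgelin (SM22) and *Des* the intermediate filament desmin. *Tnnt2* encodes cardiac troponin T and *Myh8* the perinatal heavy chain of skeletal muscle, so both belong to striated rather than smooth muscle. In the testis the best known smooth-muscle-like cells are the peritubular myoid cells around the cords, and vessels carry smooth muscle and pericytes in both sexes. Serum response factor (SRF) binds a short element called the CArG box in many of these genes, and myocardin and the MRTFs act on it as coactivators, whereas the ternary complex factors, such as ELK3, link SRF to the MAPK pathway.

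The promoters of *Acta2*, *Tagln* and *Myh11* are shown because these genes stood for the different patterns found below. *Acta2* and *Tagln* rose in culture in both sexes and were lower on average in XX gonads, whereas *Myh11* was higher in XX gonads. For *Tagln* the sex difference before culture was not called. Each stretch is the 250 bases before the start of the gene's canonical transcript in GENCODE, read from GRCm39 on the strand of the gene, which is the minus strand for all 3. Capitals mark a CArG box, searched by its strict consensus, which reads the same on both strands.
*Acta2*, chr19:34232991-34233240: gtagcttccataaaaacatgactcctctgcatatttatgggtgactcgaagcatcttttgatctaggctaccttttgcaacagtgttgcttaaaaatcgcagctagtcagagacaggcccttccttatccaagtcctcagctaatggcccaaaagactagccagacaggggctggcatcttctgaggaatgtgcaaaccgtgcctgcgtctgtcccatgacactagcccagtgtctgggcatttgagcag
*Tagln*, chr9:45847405-45847654: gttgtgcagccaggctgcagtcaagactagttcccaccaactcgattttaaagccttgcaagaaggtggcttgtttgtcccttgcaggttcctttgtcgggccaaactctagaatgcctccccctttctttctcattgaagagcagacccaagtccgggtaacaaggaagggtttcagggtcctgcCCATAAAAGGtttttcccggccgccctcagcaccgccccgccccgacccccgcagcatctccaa
*Myh11*, chr16:14109237-14109486: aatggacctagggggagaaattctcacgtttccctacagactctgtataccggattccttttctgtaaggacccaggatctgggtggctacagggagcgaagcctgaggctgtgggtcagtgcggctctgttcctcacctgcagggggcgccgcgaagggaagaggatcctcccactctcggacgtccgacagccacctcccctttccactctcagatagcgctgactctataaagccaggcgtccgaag
The *Tagln* window held 1 strict box, whose first base lay 64 bases before the transcript start. None of the other 9 members held one in this window, and of 21770 protein-coding genes with such a window, 304 did (1.4%). No match says only that these letters are absent from this window.

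All 10 genes are protein-coding and passed the filter on low counts that left 15125 genes for testing. *Acta2* (ENSMUSG00000035783.9) lies on chromosome 19 at 34217737-34232990, *Actg2* (ENSMUSG00000059430.14) on chromosome 6 at 83489887-83513551, *Tagln* (ENSMUSG00000032085.5) on chromosome 9 at 45840909-45847404 and *Cnn1* (ENSMUSG00000001349.5) on chromosome 9 at 22010512-22020926, all in GRCm39. *Myh11* (ENSMUSG00000018830.10) lies on chromosome 16 at 14012399-14109236, *Myl9* (ENSMUSG00000067818.6) on chromosome 2 at 156617084-156623579 and *Tpm2* (ENSMUSG00000028464.16) on chromosome 4 at 43514697-43524949. *Des* (ENSMUSG00000026208.9) and *Tnnt2* (ENSMUSG00000026414.13) both lie on chromosome 1, at 75320511-75345223 and 135763738-135780315, and *Myh8* (ENSMUSG00000055775.16) on chromosome 11 at 67167746-67199462. Of these, *Acta2*, *Tagln*, *Cnn1*, *Myl9*, *Des* and *Myh8* overlap a gene on the other strand. The actins, and the skeletal myosins among which *Myh8* lies, have close relatives in sequence, and how reads shared by relatives were counted was not checked. Libraries held 1380707 to 4836550 counts. Levels are CPM, counts divided by the library size after TMM scaling, and they compare a gene between samples, since levels of different genes were not compared. *Actg2* and *Cnn1* were close to the floor of the assay, with 0 to 24 and 0 to 33 counts per library, so their ratios are imprecise. *Tnnt2* was near the floor in XX gonads, with 2 to 6 counts per library before culture and 1 to 16 in DMSO at 72 h. Its ratios that use these groups are imprecise too. A gene was called when its FDR was below 0.05 and its fold change at least 1.5. In these bulk samples, fewer contractile cells and less RNA per contractile cell cannot be told apart. The sex chromosome transcripts followed the labels in all 40 libraries.

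**Figure D1:**
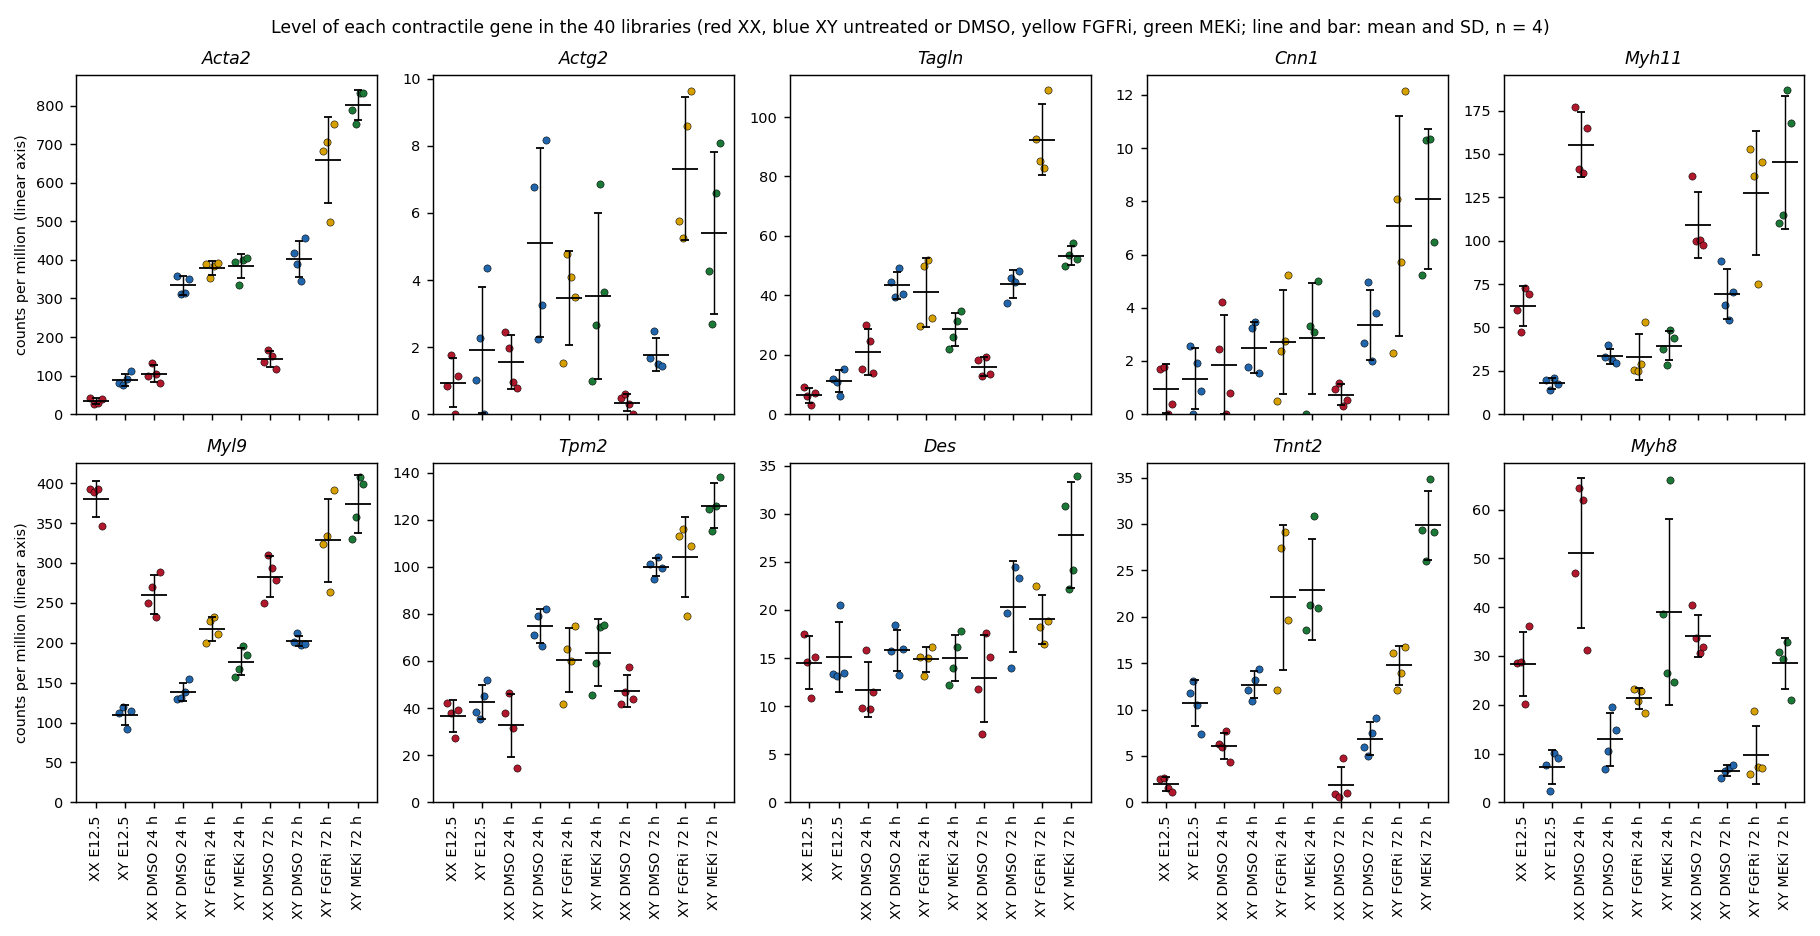
CPM on a linear axis for each of the 10 genes (panels), with 1 point per library in the 10 groups and a line and bar for the mean and SD of 4 libraries. *Acta2* was lowest in uncultured XX gonads (34.1 CPM) and highest in XY gonads with MEKi for 72 h (802 CPM). *Myl9*, *Myh11* and *Myh8* were higher on average in XX gonads than in XY gonads without an inhibitor at the same time.

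*Acta2* had the widest ratio between its highest and lowest group mean among the well counted members. Its group means, in order, were 34 ± 7.9 CPM in uncultured XX gonads, 89.1 ± 16 in uncultured XY gonads, 105 ± 21.5 in XX DMSO at 24 h and 142 ± 20.2 in XX DMSO at 72 h (SD, n = 4 each). The cultured XY groups followed, with 334 ± 23.9 CPM in DMSO at 24 h, 379 ± 18.5 with FGFRi at 24 h, 384 ± 32.3 with MEKi at 24 h and 402 ± 46.4 in DMSO at 72 h. At the top were 659 ± 112 CPM with FGFRi at 72 h and 802 ± 38.3 CPM with MEKi at 72 h. Libraries of neighbouring groups overlapped everywhere in this order except between uncultured XX and uncultured XY, between the XX groups and the cultured XY groups, and between DMSO and FGFRi at 72 h. *Des* stayed within a narrow range, with group means between 11.7 and 27.8 CPM.

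The first day of culture was compared within each sex between libraries of the same pool, and of all comparisons made here *Acta2* and *Tagln* had their largest log2 fold changes on that day in XY gonads. In XY gonads 4 of 10 members were called, all higher (*Acta2*, *Tagln*, *Myh11* and *Tpm2*), where 14.4% of all genes tested were called. *Acta2* stood at 79.5, 75.7, 89.9 and 111 CPM in the 4 uncultured XY libraries and at 358, 312, 314 and 351 CPM after 24 h in DMSO. The groups were far apart, and the rise was 3.72-fold (log2 fold change 1.90, standard error 0.132, FDR 2.68e-16). *Tagln* went from 11.8, 10.8, 6.21 and 15.2 CPM to 44.6, 39.3, 49 and 40.4 CPM, also without overlap, a log2 fold change of 1.97 (standard error 0.222, FDR 8.85e-10). *Tpm2* rose by 0.80 (standard error 0.181, FDR 0.00076) on the log2 scale and *Myh11* by 0.89 (standard error 0.239, FDR 0.00419). *Myl9* was 0.34 higher (FDR 0.0165), below the fold required, and *Des*, *Tnnt2*, *Cnn1*, *Actg2* and *Myh8* had FDRs of 0.0801 to 0.891. *Actg2* was called, at an FDR of 0.0174 or 0.0494, when the uncultured library M6 or the DMSO library M3 was left out, and *Myh8*, at 0.0271, when the DMSO library M2 was left out. *Myh8* was also called with total counts (FDR 0.0427) and without the filter on low counts (FDR 0.0119).

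In XX gonads 5 of 10 members rose over the same day, where 7.73% of all genes were called. *Acta2* went from 42.3, 26.1, 28.7 and 39.2 CPM to 98.5, 133, 105 and 81.8 CPM, 3.04-fold higher (log2 fold change 1.60, standard error 0.151, FDR 6.5e-12). *Tagln* read 8.97, 6.18, 3.1 and 7.16 CPM before culture and 15.1, 29.9, 24.7 and 13.8 CPM after it, a rise of 1.65 (standard error 0.261, FDR 4.81e-06). *Myh11*, the smooth muscle motor, rose from 60.2, 47.3, 72.8 and 69 CPM to 177, 141, 139 and 165 CPM, and the lowest cultured library was above the highest uncultured one (log2 fold change 1.33, standard error 0.188, FDR 4.38e-07). *Tnnt2* read 2.56, 2.65, 1.55 and 1.13 CPM and then 6.31, 5.94, 7.74 and 4.35 CPM, a rise of 1.57 (standard error 0.409, FDR 0.00572). That call was lost with the replicate number as a block (2.189, FDR 0.113). *Myh8* read 28.6, 28.7, 20.1 and 36.2 CPM and then 47, 64.4, 61.9 and 31.2 CPM, with overlapping libraries (0.82, standard error 0.258, FDR 0.027), and its FDR was 0.0626 to 0.121 when F2, F3 or F4 of the uncultured group or F5 or F6 of the DMSO group was left out. *Myl9* went the other way, from 392, 389, 393 and 347 CPM to 249.5, 269.8, 233 and 289 CPM, without overlap. Its log2 fold change of -0.54 (standard error 0.0998, FDR 6.61e-05) was just short of 1.5-fold, and it passed that size without uncultured F5 (-0.59) or DMSO F9 (-0.62). *Tpm2* was -0.16 on the log2 scale (FDR 0.675). The median log2 fold change of the members was 0.90 in XX and 0.86 in XY gonads, against 0.03 over all genes in each.

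Other cells changed over the same day. The 7 pericyte markers summed to 164 to 184 CPM in uncultured and 339 to 456 CPM in cultured XY libraries, with 5 higher, and to 99.1 to 157 CPM and 143 to 178 CPM in XX, with 3 higher and 1 lower. The 3 coelomic epithelium markers tested were all higher in XY gonads (91.8 to 137 CPM and then 230 to 335 CPM) and 2 were higher in XX (179 to 234 CPM and then 379 to 472 CPM). Of the 4 foetal Leydig cell markers tested, 3 were higher in XY gonads and 2 in XX. Of 6 Sertoli cell markers 4 were lower in XY gonads, with summed levels of 1915 to 2222 CPM and then 1020 to 1543 CPM. The 5 erythroid genes were lower in both sexes, and summed to 9436 to 12260 CPM before culture in XY gonads and 2027 to 4615 CPM after it. The part of these cells in the rise of the contractile genes was not tested.

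The sexes differed in that first day for 2 of 10 members, where 6.2% of all genes were called in the test of the difference itself. *Myl9* was 0.34 higher in XY and 0.54 lower in XX on the log2 scale, a difference of -0.88 (standard error 0.146, FDR 2.53e-05). *Tpm2* was 0.80 higher in XY and 0.16 lower in XX, a difference of -0.96 (standard error 0.268, FDR 0.0178). Both calls were kept with every single library left out. The response of *Acta2* differed by -0.29 between the sexes (95% interval -0.70 to 0.11) and that of *Tagln* by -0.32 (-1.05 to 0.41), and neither was called.

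**Figure D2:**
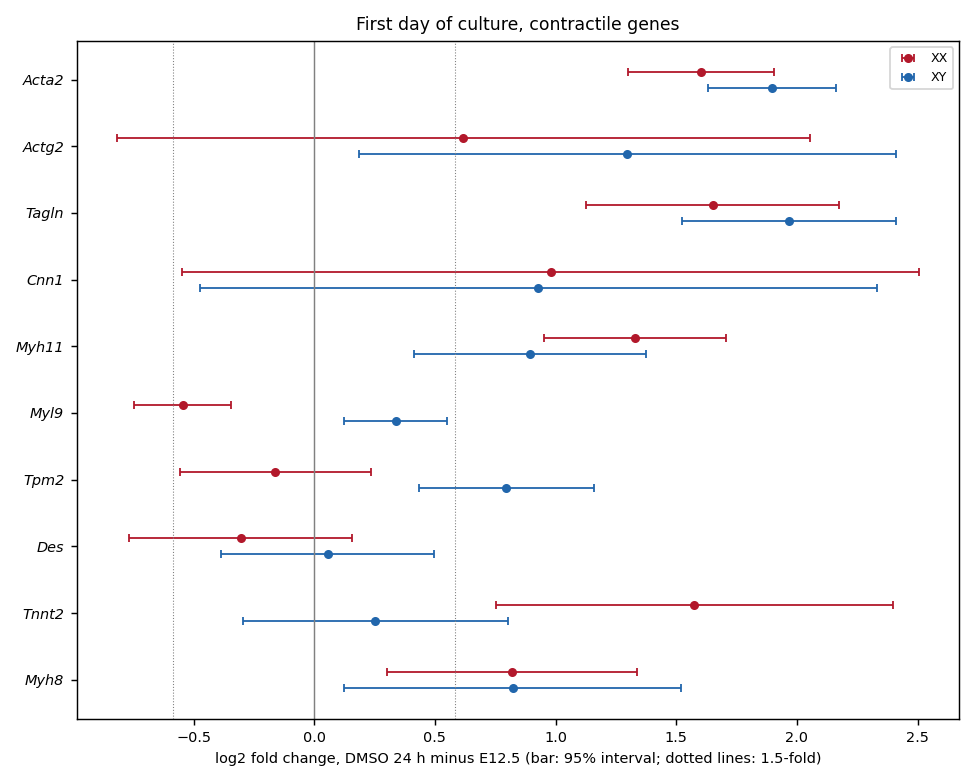
Log2 fold change from uncultured E12.5 gonads to 24 h in DMSO for each gene (rows), in XX (red) and XY (blue), with 95% intervals and dotted lines at 1.5-fold. *Acta2* and *Tagln* lie right of 1.5-fold in both sexes, and *Myl9* lies on opposite sides of 0.

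XX and XY gonads were compared at each time within one pool, and here the members parted into sets with opposite signs. Before culture 5 of 10 were called, where 17.3% of all genes were. *Myl9*, *Myh11* and *Myh8* were higher in XX gonads, and *Acta2* and *Tnnt2* were lower. The *Myl9* libraries read 392, 389, 393 and 347 CPM in XX and 112, 120.0, 91.3 and 114 CPM in XY, so every XX library held more than every XY library (log2 fold change 1.80, standard error 0.107, FDR 6.35e-20). *Myh11* read 60.2, 47.3, 72.8 and 69 CPM against 19.5, 13.7, 21 and 17.4 CPM, 3.43-fold higher (1.78, standard error 0.235, FDR 1.97e-08). *Myh8*, the skeletal myosin, read 28.6, 28.7, 20.1 and 36.2 CPM against 7.69, 2.28, 10 and 9.13 CPM (1.95, standard error 0.334, FDR 5.7e-06). In the other direction *Acta2* was 0.387 of the XY level (-1.37, standard error 0.155, FDR 2.8e-10). *Tnnt2* was lower still, at 2.56, 2.65, 1.55 and 1.13 CPM against 11.8, 13.1, 10.5 and 7.39 CPM (-2.38, standard error 0.391, FDR 2.58e-06). *Tagln* stood at -0.72 with overlapping libraries (FDR 0.0788), and was called without XX F2 (FDR 0.0467) or XY M5 (FDR 0.0197).

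After 24 h in DMSO 8 of 10 members were called between the sexes, where 19.6% of all genes were. *Myh11* (2.21), *Myh8* (1.95) and *Myl9* (0.92) were higher in XX gonads, with FDRs of 3.99e-14, 3.32e-08 and 1.27e-10, and none of these groups overlapped. *Acta2* (-1.66, FDR 8.02e-16), *Tpm2* (-1.16, FDR 6.65e-07), *Tagln* (-1.03, FDR 1.93e-05) and *Tnnt2* (-1.06, FDR 0.00281) were lower, also without overlap. *Actg2* was lower at -1.56 (FDR 0.0234) with overlapping libraries, and lost the call without XX F6 or F9 or XY M2 or M5 (FDR 0.0621 to 0.106). *Tpm2* libraries read 37.8, 46.5, 31.4 and 14.6 CPM in XX and 71, 79.3, 66.5 and 82 CPM in XY, whereas before culture the sexes had overlapped.

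After 72 h, 8 of 10 members were again called, where 20.3% of all genes were. These tests use the XY DMSO 72 h libraries that also served as controls in the comparison that selected the list. *Acta2* read 136, 165, 150.2 and 118 CPM in XX and 418, 388, 346 and 456 CPM in XY (-1.50, standard error 0.128, FDR 4.15e-14), and *Tagln* (-1.42, FDR 3.08e-07), *Tpm2* (-1.06, FDR 3.99e-06) and *Tnnt2* (-1.60, FDR 0.00128) were lower in XX too. *Myh8* read 40.4, 33.7, 30.7 and 31.9 CPM in XX and 5, 6.46, 6.98 and 7.62 CPM in XY, 5.28-fold higher (2.40, standard error 0.33, FDR 5.07e-08). *Myh11* was still higher in XX, by 0.64 (standard error 0.188, FDR 0.00691), but fell short of 1.5-fold without XX F11 (0.51) or XY M5 (0.54). *Des* (-0.61, FDR 0.0347) and *Cnn1* (-2.22, FDR 0.03) were lower in XX. *Des* lost the call without XX F11 or F4 or XY M2, M5 or M6 (FDR 0.0558 to 0.164), and also with no filter on low counts (FDR 0.109), with a filter of 1 CPM (FDR 0.0588) and with only the groups compared (FDR 0.0806). *Cnn1* lost it without XX F7 or F8 or XY M4 or M6 (FDR 0.0563 to 0.117). *Actg2* was -2.24 (FDR 0.0529) and was called with only the libraries of the same pool (FDR 0.0223). *Myl9* was 0.48 higher in XX (FDR 0.000166), under the fold required. The change in the sex difference from 24 h to 72 h was called for *Myh11* alone of the 10, at -1.57 (standard error 0.267, FDR 0.000129), where 2.04% of all genes were, and it was kept with every library left out. The pools cancel in that difference only if a pool shifts both sexes alike.

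**Figure D3:**
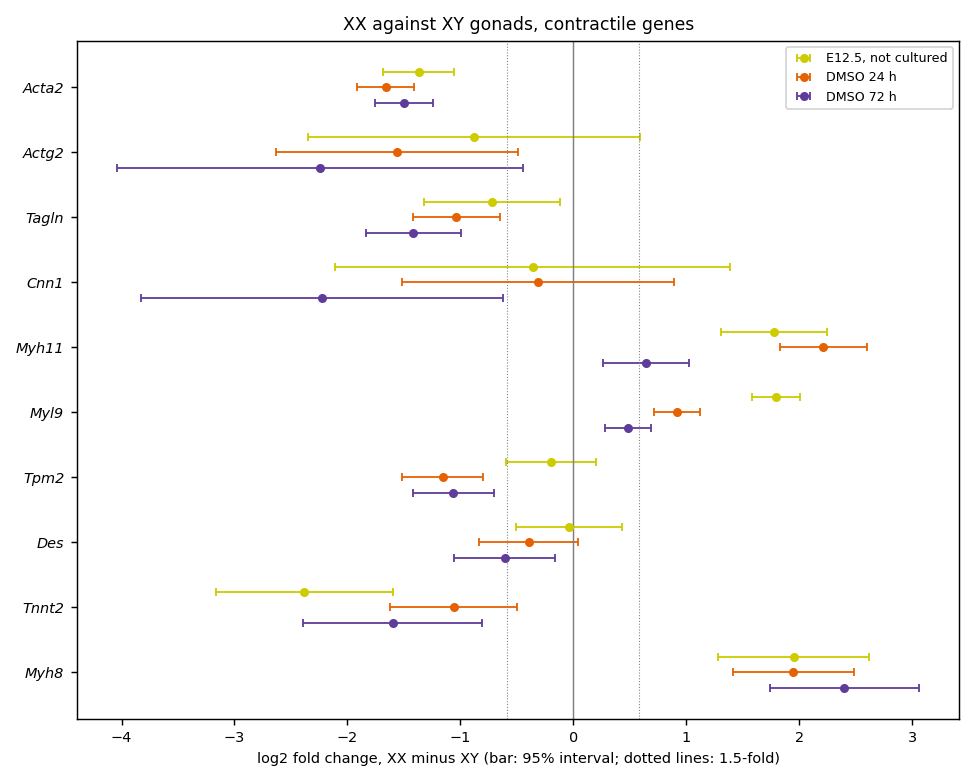
Log2 fold change of XX against XY gonads for each gene (rows) before culture and after 24 h and 72 h in DMSO, with 95% intervals and dotted lines at 1.5-fold. *Myh11*, *Myl9* and *Myh8* lie on the XX side at all 3 times, and *Acta2* and *Tnnt2* on the XY side.

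Markers of the gonadal cell types also differed between the sexes, though not all of them at every time. All 6 Sertoli cell markers tested were lower and all 6 pre-granulosa markers higher in XX gonads before culture, where the summed Sertoli level was 109 to 228 CPM in XX and 1915 to 2222 CPM in XY. The 7 pericyte markers summed to 99.1 to 157 CPM in XX and 164 to 184 CPM in XY at that time, with 3 lower and 1 higher, and at 24 h to 143 to 178 CPM and 339 to 456 CPM, with 6 lower. The 3 coelomic epithelium markers tested were all higher in XX before culture (summed level 179 to 234 CPM against 91.8 to 137 CPM). Interstitial progenitor markers were lower in XX in 3 of 5 cases before culture and in 4 of 5 at 24 h (526 to 734 CPM against 1410 to 1633 CPM). Endothelial markers were lower in 4 of 8 cases before culture and in 7 of 8 at 24 h. At 72 h 0 of 8 endothelial markers were called (69.4 to 86.7 CPM in XX and 59.5 to 124 CPM in XY). Pericyte markers were lower then in 4 of 7 cases (209 to 254 CPM against 315 to 421 CPM). Interstitial progenitor markers were lower in 4 of 5 cases at 72 h and Sertoli markers in all 6. Pre-granulosa markers were higher in 5 of 6. Of 4 foetal Leydig cell markers tested, 1 was higher and 2 were lower. The part of these cells in the differences of the contractile genes was not tested.

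MEK inhibition for 24 h was compared with DMSO in XY gonads within one pool. Of 10 members 2 were called, both of striated muscle and both higher, where 3.27% of all genes were called. Both had been picked for their rise with MEKi at 72 h, in other libraries, so the count does not describe the list as a whole. *Acta2*, picked in the same way, was not called, nor was any member that was not so picked. *Myh8* read 38.6, 26.6, 66.1 and 24.6 CPM with MEKi and 6.77, 10.4, 19.5 and 14.8 CPM with DMSO. The lowest MEKi library was above the highest DMSO library, and the rise was 3.01-fold (log2 fold change 1.59, standard error 0.273, FDR 5.06e-05), a call kept with every library left out. *Tnnt2* read 18.6, 21.3, 30.8 and 21 CPM against 12.1, 10.9, 13.2 and 14.4 CPM, again without overlap (0.87, standard error 0.247, FDR 0.0272). Its FDR rose to 0.0577, 0.0952 and 0.0585 without DMSO M2, M3 or M4 and to 0.141 without MEKi M4. Neither call was made by limma's treat test with voom weights, which asks for more than 1.5-fold (*Myh8* 1.44, FDR 0.235). *Acta2* was 384 ± 32.3 CPM with MEKi and 334 ± 23.9 CPM with DMSO, a log2 fold change of 0.21 with a 95% interval of -0.04 to 0.45. *Tagln* read 22, 25.9, 31.5 and 34.6 CPM with MEKi, all below the DMSO libraries, at -0.59 (standard error 0.191, FDR 0.0608), and it passed the test with total counts, without the filter, with only the groups compared and in DESeq2 (FDR 0.0222 to 0.0482). *Myl9* was 0.36 higher (FDR 0.0321), under the fold required. Leaving out the MEKi library M2, which the deposited sample description did not list, kept both calls.

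The MAPK output genes were lower in the same comparison in 7 of 10 cases, as were all 8 endothelial markers and 6 of 7 pericyte markers. The summed endothelial level was 36.5 to 51.8 CPM with MEKi and 178 to 271 CPM with DMSO, and the summed pericyte level 155 to 217 CPM and 339 to 456 CPM. Germ cell markers summed to 245 to 485 CPM with MEKi and 117 to 183 CPM with DMSO, with 3 of 4 higher. Their part in the values of *Tnnt2* and *Myh8* was not tested.

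At 72 h, the comparison of MEKi with DMSO chose the members, so its values are a description. *Acta2* read 789.6, 752, 832 and 832 CPM with MEKi and 418, 388, 346 and 456 CPM with DMSO, a log2 fold change of 0.99 (standard error 0.121). *Tnnt2* read 29.4, 26, 34.9 and 29.1 CPM against 6, 4.97, 7.48 and 9.04 CPM, or 2.12 (standard error 0.275). *Myh8* read 30.8, 29.4, 33 and 21 CPM against 5, 6.46, 6.98 and 7.62 CPM, or 2.16 (standard error 0.333). None of these groups overlapped. The other members were all higher on average with MEKi, by 1.58 for *Actg2*, 1.29 for *Cnn1*, 1.06 for *Myh11*, 0.89 for *Myl9*, 0.43 for *Des*, 0.33 for *Tpm2* and 0.29 for *Tagln*. The size therefore ran from 1.22-fold to 4.47-fold within the list. Of the members, 5 met the call rule and 6.47% of all genes did, and nothing is read from that count. Only *Des* had overlapping libraries, at 30.8, 22.2, 24.2 and 34 CPM with MEKi and 19.7, 13.9, 24.4 and 23.3 CPM with DMSO. Gaps were narrow for some others. The lowest MEKi and highest DMSO libraries read 2.675 and 2.485 CPM for *Actg2*, 5.21 and 4.97 CPM for *Cnn1* and 49.8 and 48.1 CPM for *Tagln*. The share of all genes without overlap was not counted, and nothing is read from the lack of overlap.

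With FGFR inhibition for 72 h in XY gonads 6 of 10 members were called, all higher, where 1.8% of all genes were. Its DMSO libraries are those of the comparison that selected the list. Low values in these libraries would raise a gene in both comparisons, so the count and the FDRs below are not independent of the selection. This holds most for *Acta2*, *Tnnt2* and *Myh8*, which were picked there. *Acta2* read 682, 704, 498 and 753 CPM with FGFRi and 418, 388, 346 and 456 CPM with DMSO, without overlap (0.71, standard error 0.121, FDR 0.000258). *Tagln* read 92.7, 85.1, 82.7 and 109 CPM against 37.3, 45.7, 44.4 and 48.1 CPM, 2.11-fold higher (1.08, standard error 0.178, FDR 0.000167). *Myl9* read 324, 334, 264 and 391 CPM against 201, 212, 198 and 198 CPM (0.70, standard error 0.102, FDR 2.35e-05). *Myh11* was higher by 0.86 (standard error 0.187, FDR 0.00536), with 1 FGFRi library, M5 at 74.8 CPM, inside the DMSO range. *Actg2* (2.04, standard error 0.546, FDR 0.0284) and *Tnnt2* (1.10, standard error 0.293, FDR 0.0276) were called on few counts. *Actg2* lost the call without FGFRi M5 or M6 or DMSO M2, M5 or M6 (FDR 0.0607 to 0.128), and *Tnnt2* without FGFRi M5 or M6 or DMSO M2 or M4 (FDR 0.0836 to 0.114). *Tpm2* was 0.05 (95% interval -0.28 to 0.39), *Des* -0.11 (-0.54 to 0.32), *Cnn1* 1.10 (-0.01 to 2.21) and *Myh8* 0.62 (-0.15 to 1.39), and these were not called. The treat test for more than 1.5-fold with voom weights called 0 of the 10, with log2 fold changes of 0.72 to 1.87 for the same 6.

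Side by side at 72 h, *Tagln* stood at 92.4 ± 11.9 CPM with FGFRi and 53.3 ± 3.2 CPM with MEKi, whereas *Tnnt2* stood at 14.8 ± 2.11 and 29.8 ± 3.68 CPM and *Myh8* at 9.67 ± 6.01 and 28.6 ± 5.23 CPM. The libraries of the inhibitors did not overlap for any of these 3 genes, but *Tnnt2* and *Myh8* were picked for their rise in these MEKi libraries. The share of all genes without overlap was not counted. *Acta2*, at 498 to 753 CPM with FGFRi and 752 to 832 CPM with MEKi, touched at a single pair of libraries (753 and 752 CPM). No test was made between the inhibitors, since the MEKi libraries selected the list.

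Beside the 72 h values, 4 of 7 pericyte markers, all 4 macrophage markers and 1 of 10 MAPK output genes were lower with FGFRi, and none of 8 endothelial markers was called. With MEKi 6 of 7 pericyte, 6 of 8 endothelial, 3 of 4 macrophage and 3 of 6 Sertoli cell markers and 9 of 10 MAPK output genes were lower. The endothelial markers summed to 31.1 to 43.1 CPM with MEKi, 53.5 to 106 CPM with FGFRi and 59.5 to 124 CPM with DMSO, and the Sertoli markers to 564 to 846 CPM, 1251 to 2385 CPM and 796 to 1367 CPM. Summed pericyte levels were 151 to 295 CPM with FGFRi, 153 to 180 CPM with MEKi and 315 to 421 CPM with DMSO. Foetal Leydig cell markers summed to 816 to 1284 CPM with MEKi, 524 to 967 CPM with FGFRi and 395 to 599.9 CPM with DMSO. Coelomic epithelium markers summed to 390 to 428 CPM with MEKi, 298 to 368 CPM with FGFRi and 208 to 289 CPM with DMSO. The part of these cells in the contractile values was not tested.

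**Figure D4:**
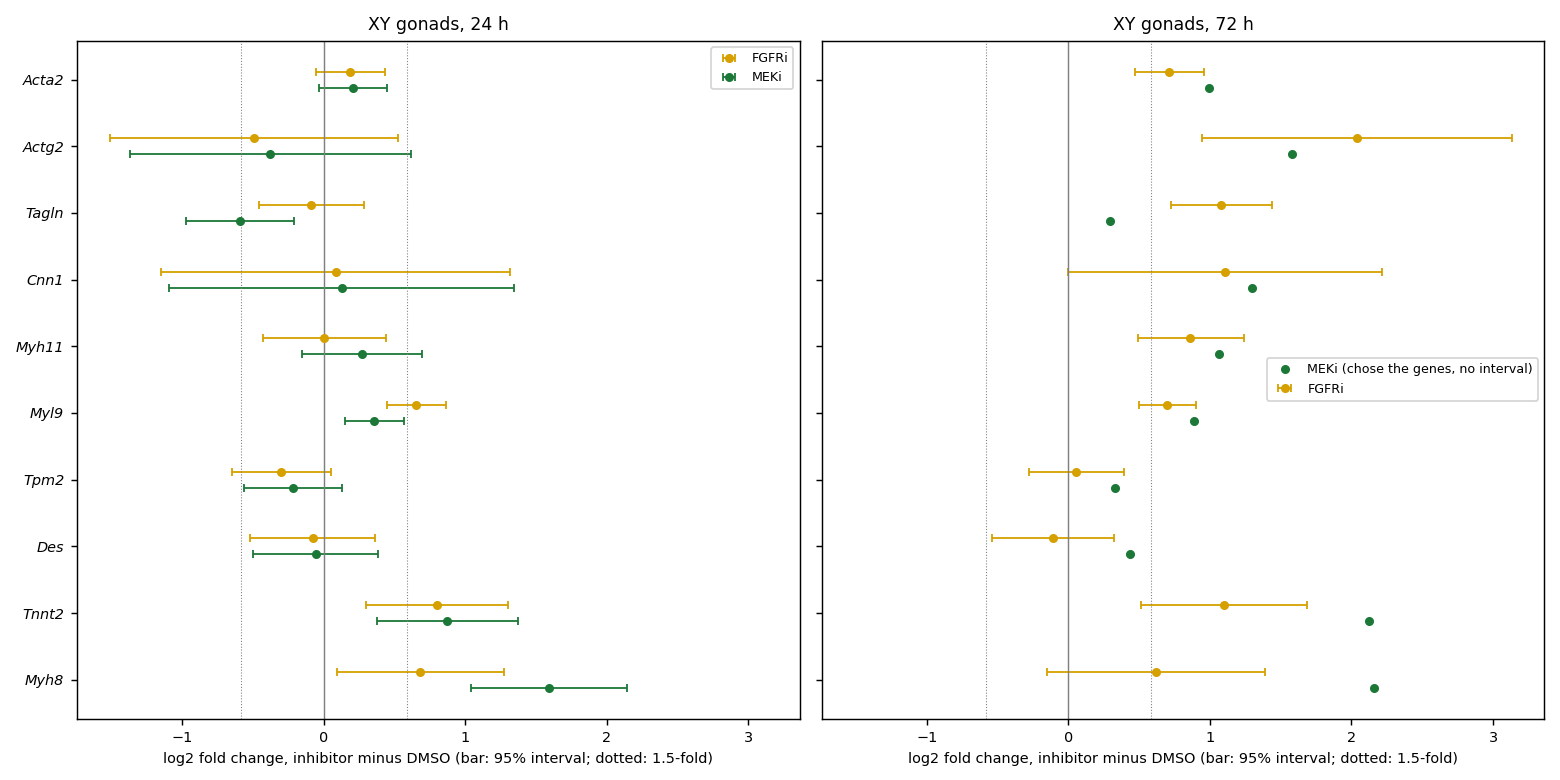
Log2 fold change of FGFRi (yellow) and MEKi (green) against DMSO in XY gonads at 24 h (left) and 72 h (right) for each gene (rows), with dotted lines at 1.5-fold and 95% intervals except for MEKi at 72 h, which chose the genes. At 24 h *Tnnt2* and *Myh8* lie furthest right with MEKi, and at 72 h with FGFRi *Tpm2* and *Des* lie near 0 and the other 8 genes right of 1.5-fold, of which *Cnn1* and *Myh8* were not called.

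FGFRi at 24 h and DMSO at 24 h were sequenced in different pools, so inhibitor and pool cannot be told apart in that comparison. It called 2 of 10 members, *Myl9* (0.65, FDR 2.47e-05) and *Tnnt2* (0.80, FDR 0.0468), where 3.27% of all genes were called. *Myl9* averaged 217 ± 14.7 CPM with FGFRi and 138 ± 11.3 CPM with DMSO, and every FGFRi library was above every DMSO library. *Tnnt2* lost its call without any 1 of 7 of the 8 libraries (DMSO M2, M3, M4 or M5 or FGFRi M3, M4 or M5), with FDRs of 0.0585 to 0.23. It was also lost with total counts, either other filter, only the groups compared or the replicate block (FDR 0.0576 to 0.0772). *Acta2* was 0.19 (95% interval -0.06 to 0.43) and *Tagln* -0.09 (-0.46 to 0.28). Beside these values 3 of 4 germ cell markers were lower with FGFRi, with a summed level of 22.6 to 65.6 CPM against 117 to 183 CPM, as were 3 of 10 MAPK output genes, 1 of 7 pericyte markers and 1 of 8 endothelial markers. Among the Sertoli and the pre-granulosa markers 1 of 6 each was higher. Their part in the values of *Myl9* and *Tnnt2* was not tested.

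Time in DMSO is confounded with the pool in the same way. From 24 h to 72 h in XY gonads, where 7.27% of all genes were called, *Myh11* was higher (1.06, FDR 0.000131) and *Tnnt2* (-0.88, FDR 0.0351) and *Myh8* (-1.04, FDR 0.0427) lower. The XY DMSO 72 h libraries were also the controls in the comparison that selected the list. Low values of *Tnnt2* and *Myh8* in them would favour both that selection and these falls, so the calls are not independent of it. The *Tnnt2* call was lost without DMSO 24 h M2, M4 or M5 or DMSO 72 h M2, M4 or M5 (FDR 0.0507 to 0.117), and that of *Myh8* without DMSO 24 h M4 or M5 or any DMSO 72 h library (FDR 0.054 to 0.264). *Actg2* was called without DMSO 24 h M3 (FDR 0.0384) and *Myl9* without DMSO 24 h M5 (0.61). In XX gonads, where 8.15% were called, *Tnnt2* was lower (-1.42, FDR 0.00966), a call lost without F11 of 72 h (FDR 0.051). *Acta2* (FDR 0.00264) and *Tpm2* (FDR 0.00853) were called higher without F5 of 24 h, and *Myh11* lower without F11 of 72 h (-0.64).

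The list did not move as a single unit over the groups. Correlations of mean log2 CPM over the 10 groups were 0.57 to 0.95 among *Acta2*, *Actg2*, *Tagln*, *Cnn1*, *Tpm2*, *Des* and *Tnnt2*. *Myh11* and *Myl9* correlated with each other at 0.81 and with *Acta2* at 0.18 and 0.03. *Myh8* had r of -0.22 with *Acta2*, 0.43 with *Myh11* and 0.47 with *Myl9*. The 10 points share treatment and sex contrasts, including the MEKi group that selected the list, so these values describe and do not test.

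Within groups, after the mean of each group was removed from the log2 CPM of its 4 libraries, 36 of the 45 pairs of members had a positive r over the 40 libraries, with a median of 0.23 and a range of -0.14 to 0.58. The highest values were between *Acta2* and *Tpm2* (0.58), *Actg2* and *Tagln* (0.56), *Tagln* and *Tpm2* (0.52) and *Cnn1* and *Tpm2* (0.48). Each member's median r with all genes tested was within 0.013 of 0, against 0.08 for *Myh8* and 0.17 to 0.39 for the others with their fellow members. *Acta2* had an r of 0.46 with *Tagln*, 0.34 with *Myh8* and -0.01 with *Tnnt2*, and *Tnnt2* and *Myh8* had -0.01 with each other. Without the MEKi 72 h group the median was 0.23, and 36 pairs were positive. Each group lay in a single pool, so the mean level of a pool was removed with the group mean. The depth of libraries still differed within groups, and the values of *Actg2* and *Cnn1* rest on few counts.

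**Figure D5:**
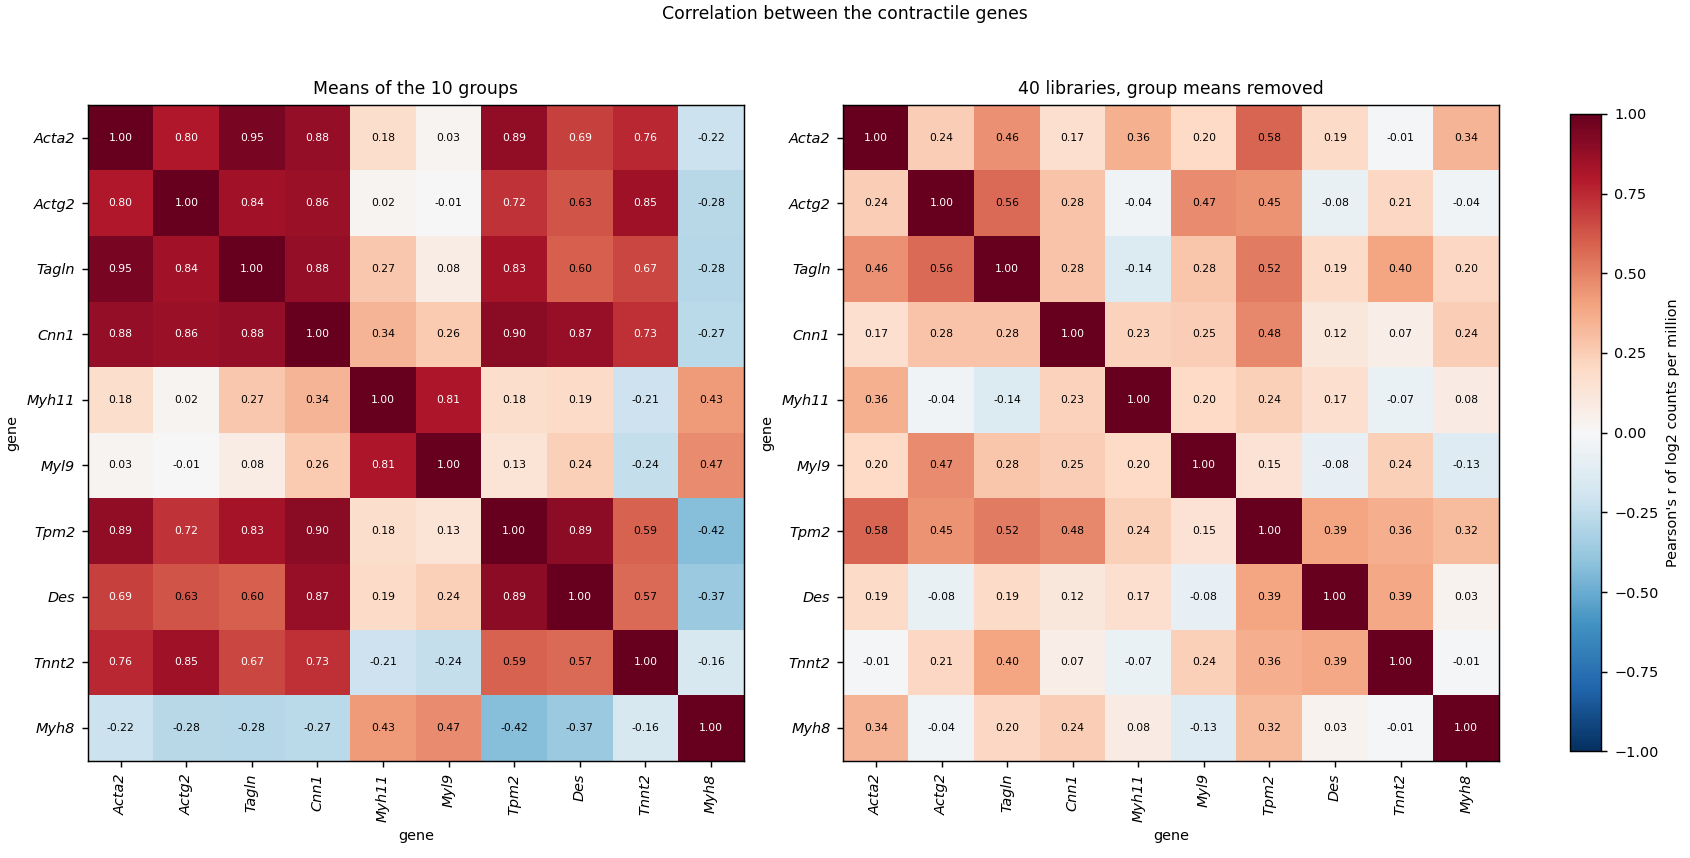
Pearson's r of log2 CPM between the 10 genes (rows and columns), over the means of the 10 groups (left) and over the 40 libraries with group means removed (right). On the left *Myh11*, *Myl9* and *Myh8* stand apart from the other 7 genes, and on the right the highest r is 0.58, between *Acta2* and *Tpm2*.

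The genes most like *Acta2* over the 10 group means, of 12981 genes with a mean of at least 5 CPM, were *Fhl2* (r = 0.994), *Mmp19* (0.983), *Inhba* (0.976), *Scn3a* (0.975) and *Mylk* (0.974). *Fhl2* encodes a LIM protein that binds SRF, *Inhba* an activin subunit and *Mylk* the kinase that phosphorylates the myosin light chain. Most like *Tagln* were *Scn3a* (0.958), *Ahi1* (0.954), *Fhl2* (0.954), *Upk1b* (0.953) and *Acta2* itself (0.949). Most like *Tnnt2* were *Pkia* (0.94), *Gsta4* (0.937), *Erc2* (0.931), *Cdc42ep3* (0.923) and *Entpd5* (0.921). These are the highest of 12981 values over only 10 points, which include the MEKi group that selected the list. The rankings therefore describe and do not test. *Fhl2* and *Mylk* also stand on the gene lists counted below, and a shared regulation was not tested.

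Other smooth muscle and actin cytoskeleton genes, 22 in all, were counted by the same rule. On the first day of culture 6 were higher and 0 lower in XY gonads, where 14.4% of all genes were called. Their median log2 fold change was 0.46 against 0.03 over all genes. The higher ones were led by *Pdlim3* (3.38, FDR 3.56e-14), *Cav1* (1.39, FDR 7.18e-10), *Synpo2* (1.16, FDR 0.0483) and *Mylk* (0.92, FDR 4.32e-07). In XX gonads, where 7.73% of all genes were called, 3 were higher, *Synpo2* (1.15), *Mylk* (0.92) and *Tagln2* (0.59). Between the sexes at 24 h 11 were lower in XX and 0 higher, where 19.6% of all genes were called. The lower ones were led by *Pdlim3* (-4.27, FDR 3.9e-18), *Tagln2* (-1.64, FDR 4.08e-16), *Mylk* (-1.54, FDR 8.76e-14) and *Cnn2* (-1.50, FDR 6.87e-15). The median of the list was -0.62 against -0.01 over all genes. At 72 h 8 were lower and 2 higher in XX, where 20.3% of all genes were called. *Smtn*, which encodes smoothelin, was lower in XX at all 3 times (-1.36, -1.30 and -0.73). With MEKi at 24 h 3 of the 22 were lower, led by *Itga8* (-1.46, FDR 2.79e-05), where 3.27% of all genes were called in either direction. With FGFRi at 24 h, across pools and with the same share of all genes, 2 were lower, *Itga8* (-2.57, FDR 3e-09) and *Csrp1* (-0.59, FDR 0.0306). With FGFRi at 72 h 0 of the 22 were called higher and *Itga8* alone was lower (-1.76, FDR 0.000351), where 1.8% of all genes were called. The median log2 fold change of the 22 was 0.21 there, against 0 over all genes. *Itga8* encodes an integrin subunit of mesenchymal and smooth muscle cells. With MEKi at 72 h 3 met the rule as higher, where 6.47% of all genes were called.

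Of 27 striated muscle sarcomere genes 14 passed the filter. With MEKi at 24 h, where 3.27% of all genes were called, 2 were higher, the cardiac genes *Tnni3* (0.75, FDR 0.00497) and *Mybpc3* (0.77, FDR 0.0254), beside *Tnnt2*. With FGFRi at 72 h, where 1.8% of all genes were called, 2 were higher, *Actc1* (2.03, FDR 0.0448) and *Tnni3* (0.66, FDR 0.029). With MEKi at 72 h, where 6.47% of all genes were called, 3 met the rule as higher and 2 as lower. *Mybpc3* was among the lower, at 35.6 CPM against 62.5 CPM. Before culture *Tnnc1*, cardiac troponin C, was lower in XX gonads (-3.83, FDR 6.04e-10), as was *Mybpc3* (-2.64, FDR 1.14e-06), and *Tnnt1* (1.19, FDR 6.71e-07) and *Tnni3* (0.93, FDR 0.00388) were higher. Of 10 myogenic factors only 2 passed the filter on low counts, and of these *Mef2c* was lower in XX at all 3 times (-1.80, -1.36 and -1.21).

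Among SRF and its cofactors, *Myocd*, which encodes myocardin, was lower in XX than in XY gonads at 24 h (-1.36, standard error 0.387, FDR 0.00557) and 72 h (-2.46, standard error 0.391, FDR 1.24e-06). Its group means were 16.8 ± 3.28 CPM with DMSO, 26.2 ± 7.44 with FGFRi and 43.2 ± 11.3 with MEKi in XY gonads at 72 h. With FGFRi at 72 h its log2 fold change was 0.62 (FDR 0.294), and with MEKi at 24 h 0.67 (FDR 0.302). It was higher with FGFRi at 24 h (1.11, FDR 0.0246), across pools. *Elk3* was lower with FGFRi at 72 h (-0.98, standard error 0.191, FDR 0.00178) and lower in XX gonads before culture (-0.60, FDR 0.0113) and at 24 h (-0.84, FDR 7.77e-05). The comparison of MEKi with DMSO at 72 h chose the members and is a description here, and 6.47% of all genes were called in it. Of 11 genes of this list, 2 met the rule as higher, *Myocd* among them (1.35), and 3 as lower, among them *Srf* (-1.005) and *Elk3* (-0.61). *Srf* had means of 6.52 CPM with MEKi and 12.8 CPM with DMSO there, with overlapping libraries, and was called in no other comparison. *Mrtfa* was higher in XX before culture (1.35, FDR 1.74e-06) and fell in XX on the first day (-0.69, FDR 0.0134), and *Mrtfb* was called in no comparison. Of 6 TGF-beta ligands and receptors, a pathway known to raise smooth muscle genes, 4 were higher in XY gonads on the first day (*Tgfb1*, *Tgfb2*, *Tgfb3* and *Tgfbr2*, 0.92 to 1.25), where 14.4% of all genes were called. In XX gonads 0 of 6 were, where 7.73% of all genes were called. Their part in the contractile values was not tested. With MEKi at 24 h *Tgfb1* was lower (-1.25, FDR 0.0215), and with FGFRi at 72 h *Tgfbr2* was (-0.69, FDR 0.0286).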

How the data were processed

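The deposited table holds raw UMI counts per gene for each library (unique molecular identifiers, counted once per gene), which the authors made with scPipe and Rsubread on GRCm39. The steps are stated for germ cell libraries and taken to hold for the somatic ones. One MEKi 24 h library, M2, is named in the table and in the deposited barcode list but not in the sample description, and was used. Of 42422 identifiers, 40391 matched GENCODE M39 (98.98% of counts). Totals ran from 1380707 to 4836550 counts (median 2248854), and 0 columns of per-sample values were left out. How libraries map to cultures beyond pooled gonads is not given in the sources used here, so p-values measure the spread between libraries.

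Counts were fitted in edgeR 4.0.16 (R 4.3.3) by the quasi-likelihood test with filterByExpr (minimum count 10), TMM scaling and 1 mean for each of 10 groups over 40 libraries. FDR is the Benjamini-Hochberg adjusted p over 15125 genes, and a call needs an FDR below 0.05 and at least 1.5-fold. Intervals cover 95%. Alternatives were RLE scaling, total counts, other filters, fewer libraries, a replicate block, DESeq2 1.42.0, limma 3.58.1 (voom with quality weights and treat) and leaving out each library. Correlations use log2 CPM with a prior count of 2, and likeness was ranked among genes with a mean of at least 5 CPM. The fit was tested on simulated data. All 10 members are named. From the other lists up to 4 called genes per comparison were named, those with the largest change and at least 5 CPM in 1 group, besides *Srf*, *Myocd*, *Mrtfa*, *Mrtfb* and *Elk3*. *Smtn* at 24 h and 72 h was named after its values were seen. Members and lists were chosen with earlier results of these data known. Omitting the MEKi 72 h group or single libraries from the within-group correlations was added after seeing the data.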

Additional observations from a re-analysis of the deposited data

Results flagged for a closer look

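Within groups of 4 libraries, the highest or lowest library was compared with Dixon's 95% critical value for its gap to the nearest library in 100 groups (10 genes in 10 groups), and 7 groups exceeded it. Chance alone exceeds it in about 1 of 20 groups. *Acta2* was low in the XY MEKi 24 h library M2, at 336.1 CPM against 395, 401 and 405 CPM in the others. *Myh11* was high in XY FGFRi 24 h M5 (52.88 CPM) and in XX DMSO 72 h F11 (137.2 CPM), and the second of these bears on the call of *Myh11* between the sexes at 72 h. *Myl9* was low in the uncultured XX library F5 (346.8 CPM), and *Des* was high in the uncultured XY library M5 (20.56 CPM). *Tnnt2* read 4.769 CPM in XX DMSO 72 h F7 and *Myh8* 18.63 CPM in XY FGFRi 72 h M4, both above their groups.

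The effect of a contrast differed between groups for 3 members by a test of the difference itself. The first day of culture differed between XX and XY gonads for *Myl9* (-0.881 on the log2 scale) and *Tpm2* (-0.958). The sex difference of *Myh11* changed from 24 h to 72 h by -1.571, where each time lay in a pool of its own.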

How the results depend on the processing

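Of 1026 alternative values (other scaling, filters, samples, tools), 954 kept their direction and call, 40 lost the call, 11 gained it and 21 changed sign, none of the last a called value. Limma's treat test with voom and quality weights, which changes the fit and tests for more than 1.5-fold, called fewer members. The authors state this kind of test, at the same fold, for their own analysis of germ cell libraries. Its counts were 2 for the first day in XY (4 by the main test) and 2 in XX (5), 5 for XX against XY at 24 h and 4 at 72 h (8 each), 0 for each inhibitor at 24 h (2 each), 0 for FGFRi (6) and 3 for MEKi (5) at 72 h, 0 for 72 h against 24 h in XY (3) and XX (1), and 0 for both differences between the sexes (2 and 1). DESeq2 kept the member count of every comparison within 1.5 times. For FGFRi at 24 h 1 member was called with total counts, no filter, a filter of 1 CPM, only the groups compared or a replicate block, and for XX at 72 h against 24 h 2 were called with only the groups compared. The median r within groups was 0.207 with a prior count of 0.5 and 0.216 in pool 2. The cause of these changes was not tested.

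Values that changed sign under an alternative had FDRs of 0.536 to 1 there. *Tpm2* in XX on the first day was 0.331 with the block. *Des* was 0.002 with total counts and 0.006 with voom between the sexes before culture, and 0.095 with the block and 0.007 with voom for MEKi at 24 h. At 24 h with voom *Cnn1* was -0.547 under MEKi and -0.182 under FGFRi. *Myh11* with FGFRi at 24 h was -0.056, -0.001, -0.017, 0 and -0.047 with total counts, no filter, 1 CPM, only the groups compared and voom, and *Tagln* 0.045 with the block. *Tagln* at 72 h against 24 h in XY was -0.032, -0.015, -0.013, -0.077 and -0.05 with total counts, no filter, 1 CPM, the block and voom. In the sex difference of the first day *Cnn1* was -0.032 with total counts and -0.724 with voom, and *Myh8* 0.012 with DESeq2.

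With single libraries left out, 1090 of 1200 values kept their direction and call. Member counts ran from 4 to 5 for the first day in XY, 4 to 6 in XX, 5 to 6, 7 to 8 and 6 to 7 for the sexes before culture, at 24 h and at 72 h, 1 to 2 for each inhibitor at 24 h, 4 to 6 (FGFRi) and 5 to 6 (MEKi) for the inhibitors at 72 h, and 1 to 4 and 1 to 3 for 72 h against 24 h in XY and XX. The median r within groups ran from 0.199 to 0.245. Signs changed for *Des* (first day in XY -0.034 to 0.23, sexes before culture -0.134 to 0.137, 24 h of MEKi -0.149 to 0.032, 24 h of FGFRi -0.18 to 0.012, XX 72 h against 24 h -0.063 to 0.364), *Cnn1* (sexes before culture -0.748 to 0.098, 24 h of MEKi -0.285 to 0.525, 24 h of FGFRi -0.474 to 0.414, sex difference of the first day -0.76 to 0.435), *Tagln* (FGFRi at 24 h -0.237 to 0.028, XY 72 h against 24 h -0.047 to 0.083), *Tpm2* (first day in XX -0.412 to 0.052, FGFRi at 72 h -0.004 to 0.172, sex difference over time -0.118 to 0.348), *Myh11* (FGFRi at 24 h -0.335 to 0.11) and *Myh8* (sex difference of the first day -0.216 to 0.293).

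Libraries with the same replicate number did not deviate together (r of -0.156 to 0.116 over genes), so the numbers were not used to pair them. A replicate block ended the calls of *Tnnt2* in XX on the first day (2.189, FDR 0.113) and with FGFRi at 24 h (0.986, FDR 0.0581) and no other call of a member. No paired analysis was possible for XX against XY or the differences between the sexes because the sexes share no numbers, nor for XX at 72 h against 24 h, which share only F4. At 0 to 33 counts a library, differences in *Actg2* and *Cnn1* were measured with little precision.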
